A study of Caenorhabditis elegans with 2 samples.

Results

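The regions described here are 289 binding peaks of the homeodomain protein VAB-7 whose summits lie inside protein-coding genes of Caenorhabditis elegans but far from the place where those genes begin. They were taken from a list of 1815 peaks made from both replicates together. A summit, the base of highest signal in a peak, was dropped when it lay within 200 bp of the 5′ end of a tRNA, snoRNA or snRNA gene, which removed 514 peaks. A further 717 summits lay within 1000 bp of the 5′ end of a protein-coding gene and 295 lay farther away but between genes. The remaining 289 summits made up 15.9% of the list (95% exact binomial interval 14.3 to 17.7) and fell in 243 host genes, with 4 summits inside a pair of overlapping genes. Within that list the choice used position alone and no measured level. The list itself holds only peaks that had passed the authors' threshold over both replicates.

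The study was a chromatin immunoprecipitation experiment with sequencing in strain RW12267, whose genotype is st12267[vab-7::TY1::EGFP::3xFLAG] III. In this strain CRISPR editing placed an EGFP-carrying tag on the endogenous vab-7 gene. Whole animals, synchronised by starving first-stage larvae after bleaching, were collected as L4 larvae at 47 hours, and their sonicated chromatin was pulled down through GFP with an anti-GFP antibody. There were 2 biological replicates of this 1 group, and the labels do not say how their cultures were kept apart. Every worm carried the tag, every tissue of the animal was in the sample, and the tagged line was the only genotype, so no condition was compared and no p-value is given. The control experiment was not analysed here. Intervals below are 95% intervals that cover the number of peaks only, not the error between replicates, and neighbouring peaks are not independent.

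VAB-7 is the worm relative of the fly protein Even-skipped, a homeodomain transcription factor that patterns the posterior body and sets the identity of a class of motor neurons. Homeodomains of this kind typically bind short AT-rich words with the core TAAT. Binding inside a gene can reflect an enhancer in an intron, an alternative transcript start, or another gene nested in the host, and long introns in worms often hold such nested elements.

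The windows around 8 summits are shown because they are from the intronic and coding members of highest signal that the naming rule allowed to be printed, and because their letters differ in kind. Each is the plus strand of the RefSeq copy of assembly WBcel235 (ce11), 50 bp either side of the summit. The window in mom-1 is chrX:6296572-6296672, that in unc-104 is chrII:7001570-7001670, that in Y41G9A.17 is chrX:2997014-2997114 and that in cmk-1 is chrIV:1831333-1831433. The window in brc-1 is chrIII:3855040-3855140 and that in Y69A2AR.31 is chrIV:2657437-2657537, and all 6 of these are intronic. The coding-exon windows are chrIII:835932-836032 in dos-3 and chrX:5429496-5429596 in pks-1. Capitals in unc-104 mark the bases of an annotated tRNA pseudogene (C52E12.t1 in RefSeq), capitals in Y69A2AR.31 mark a match on either strand to GTTCNANNC, the letters of the tRNA B box, and capitals in cmk-1 mark a word of 9 bp that occurs 3 times. The other windows had none of these.
mom-1: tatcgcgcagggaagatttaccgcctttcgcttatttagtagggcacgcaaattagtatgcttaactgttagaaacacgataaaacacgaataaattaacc
unc-104: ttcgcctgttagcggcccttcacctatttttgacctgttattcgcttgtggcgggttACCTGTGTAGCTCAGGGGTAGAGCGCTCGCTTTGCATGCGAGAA
Y41G9A.17: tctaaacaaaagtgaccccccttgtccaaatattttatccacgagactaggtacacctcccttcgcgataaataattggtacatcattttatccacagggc
cmk-1: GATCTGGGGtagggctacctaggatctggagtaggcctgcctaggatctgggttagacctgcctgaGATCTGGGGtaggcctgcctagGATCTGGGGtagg
brc-1: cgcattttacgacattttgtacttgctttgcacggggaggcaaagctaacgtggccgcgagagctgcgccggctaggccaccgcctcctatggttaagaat
Y69A2AR.31: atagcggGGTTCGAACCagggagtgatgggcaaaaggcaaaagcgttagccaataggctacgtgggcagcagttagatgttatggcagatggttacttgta
dos-3: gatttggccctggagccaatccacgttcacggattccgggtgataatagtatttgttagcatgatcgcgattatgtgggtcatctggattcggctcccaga
pks-1: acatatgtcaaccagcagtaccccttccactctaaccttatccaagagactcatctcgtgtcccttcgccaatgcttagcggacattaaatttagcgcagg

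Most of the summits were intronic. Of the 289, 203 lay in introns (70.2%, 64.6 to 75.5), 53 in coding exons (18.3%, 14.0 to 23.3), 17 in 5′ UTRs (5.88%, 3.46 to 9.25), 12 in 3′ UTRs (4.15%, 2.16 to 7.14) and 4 in other exons. These shares were set beside the sequence in which a summit could have met the same position rule, called eligible sequence here, which came to 40.7 Mb. Introns made up 58.4% of it, coding exons 35.1%, 5′ UTRs 1.13% and 3′ UTRs 5.12%. Per Mb of eligible sequence there were 8.53 summits in introns, 3.71 in coding exons, 37.0 in 5′ UTRs and 5.76 in 3′ UTRs, against 7.10 over all features. Introns and 5′ UTRs thus held a larger share of the summits than of the sequence, and coding exons a smaller one. All 4 summits in other exons were in tos-1, a gene named as a target of splicing and used as a splicing reporter.

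**Figure D1:**
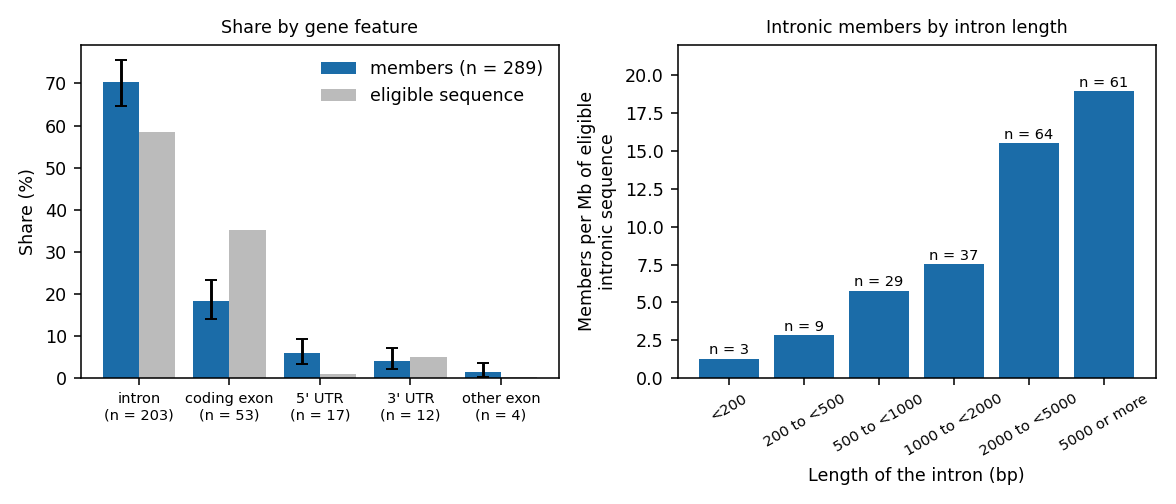
Left, the share (%) of the 289 members and of the eligible sequence by gene feature, with 95% exact binomial intervals as error bars; right, intronic members per Mb of eligible intronic sequence by the length of the intron in bp. Introns hold 70.2% of members and 58.4% of eligible sequence, and the density rises from 1.30 per Mb in introns under 200 bp to 18.9 per Mb in introns of 5000 bp or more. Intronic bases at the right are those of the transcript with the longest coding sequence, while members could be placed in another coding transcript.

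Intronic summits were concentrated in long introns. Of the 203, 125 (61.6%, 54.5 to 68.3) lay in introns of at least 2000 bp, which held 32.3% of the eligible intronic bases. The density rose with each step in intron length, from 1.30 per Mb below 200 bp and 2.85 per Mb from 200 to below 500 bp to 15.5 per Mb from 2000 to below 5000 bp and 18.9 per Mb at 5000 bp or more. The median intron with a summit was 2655 bp long (2159 to 3146), whereas the median eligible intronic base lay in an intron of 1110 bp. None of the 12 summits in introns shorter than 500 bp was overlapped by a peak in the thresholded list of each replicate, against 36 of the 125 in introns of 2000 bp or more. First introns held 49 of the 203 (24.1%, 18.4 to 30.6) but 12.7% of the eligible intronic bases. Last introns held 31 (15.3%, 10.6 to 21.0), close to their 15.3% of bases. The bases in these comparisons are those of the transcript with the longest coding sequence, while a member could be placed in another coding transcript. The shares of first and last introns and the intron lengths are therefore not fully alike in measure, and the effect of this was not computed.

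The summits were far from annotated gene starts, but a part of them was near the start of a shorter transcript of the same or another gene. The median distance to the nearest protein-coding gene start was 3058 bp (2593 to 3449), the least 1039 bp and the greatest 23530 bp. When every annotated transcript start was counted in place of the outermost 5′ end of each gene, 81 of the 289 (28.0%, 22.9 to 33.6) had one within 1000 bp, as had 15.6% of the eligible bases. Within 200 bp the numbers were 19 summits (6.57%, 4.0 to 10.1) and 3.55% of the bases. Of those 19, 10 were among the 17 summits in 5′ UTRs (58.8%, 32.9 to 81.6), of which 15 had a transcript start within 1000 bp. A 5′ UTR is by annotation the first part of a transcript, so closeness to a start is partly built into this class. The share of eligible 5′ UTR bases near a start was not computed. The 5′ UTR summits in pck-2, a phosphoenolpyruvate carboxykinase, and drap-1 lay 41 and 66 bp from a transcript start. Intronic summits were at 28.6% (22.5 to 35.3) within 1000 bp, against 17.8% of eligible intronic bases. Coding-exon summits were at 15.1% (6.75 to 27.6), and that interval holds the 12.6% of eligible exonic bases. The share of eligible coding bases alone was not computed. Median signal was 89.7 for the 81 summits near a transcript start and 88.5 for the others, so level did not separate them.

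Coding-exon summits lay late in their genes. Their median position along the host, with 0 at the 5′ end and 1 at the 3′ end, was 0.793 (0.657 to 0.845), and that of eligible coding windows was 0.642. Their median distance to the 3′ end of the host was 849 bp (431 to 1883), against 1708 bp for eligible coding windows. The position rule removes the first 1000 bp of every gene, so values above 0.5 follow for short genes, and the eligible windows carry the same constraint. Intronic summits lay nearer the middle, at a median of 0.473 (0.427 to 0.536), against 0.537 for eligible intronic windows.

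At the limit of the rule, 12 members lay from 1039 to 1092 bp from a gene start with a median signal of 86.9, and 10 peaks inside genes just short of the limit lay from 925 to 989 bp away with a median of 82.4.

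Peak signal, as the authors' peak list gives it without a stated normalisation, was lower in these regions than in the rest of the list. The median was 88.7 (85.9 to 91.6) over the 289, 98.1 within 1000 bp of gene starts, 99.9 for the intergenic peaks, 152 at the small RNA genes and 105 over all 1815. Among the members it was 91.6 in introns, 80.5 in coding exons, 92.4 in 5′ UTRs and 85.8 in 3′ UTRs. Signals ran from 2.87 to 424. At the low end, all 14 members with a signal under 20 overlapped another peak of the list. The 30 members that overlapped another peak had a median of 38.0 against 89.7 for the other 259.

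**Figure D2:**
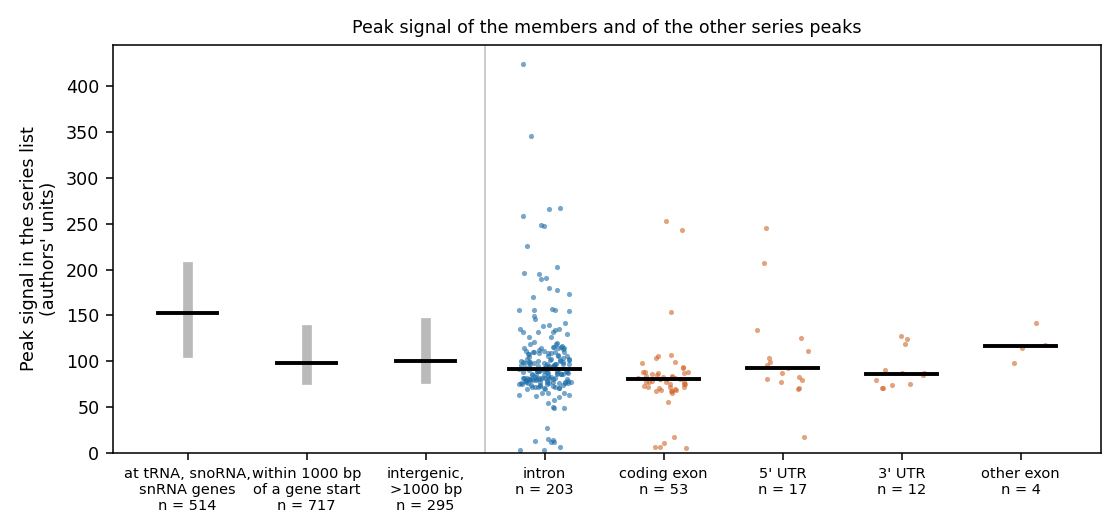
Peak signal in the list made from both replicates (y axis, the authors' units). Points are single members by gene feature, black lines are medians, and grey bars at the left span the 25th to 75th percentile of the other peaks of the list. The members' medians, 91.6 in introns and 80.5 in coding exons, sit below the 152 at small RNA genes.

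Fewer of these peaks were found in each replicate alone. Thresholded lists were also deposited for each replicate, and 63 of the 289 members (21.8%, 17.2 to 27.0) overlapped a peak in both, against 38.5% of all 1815 peaks. Replicate 1's list held 115 of them (39.8%, 34.1 to 45.7; all peaks 52%) and replicate 2's list 34.9% (29.5 to 40.8; all peaks 56.1%). Neither list held 136 of them (47.1%), against 30.4% of all peaks. Both shares were thus below those of the whole list. The share found in both was 30.3% near gene starts and 32.2% for the intergenic peaks. In the stricter conservative list 203 of the members were present (70.2%), against 82.9% of all peaks.

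Coding-exon members were in replicate 2's list less often than intronic members, and most were in neither list. Replicate 1's list held 81 of the 203 intronic members (39.9%) and replicate 2's list held 80 (39.4%). For the 53 coding-exon members the numbers were 18 in replicate 1 (34.0%, 21.5 to 48.3) and 7 in replicate 2 (13.2%, 5.48 to 25.3), with 4 in both (7.55%, 2.09 to 18.2). The interval for replicate 1 holds the intronic share. Neither list held 32 of the 53 (60.4%), against 92 of the 203 intronic members (45.3%). In the longer ranked lists, deposited without the threshold, 284 of the 289 members had a peak in each replicate, and the signals there are on a scale that is not stated. The signal was higher in replicate 1 for 236 of these 284 (83.1%, 78.2 to 87.3), and for 78.1% of all peaks, although the thresholded lists held intronic members about equally and more of all peaks for replicate 2. The median ratio of replicate 1 to replicate 2 was 1.33 in introns, 1.82 in coding exons and 1.29 over all peaks. Spearman's rho between the replicates, a description across peaks that share 2 libraries, was 0.349 over 200 intronic members and -0.167 over 52 coding-exon members, and 0.621 over 1781 of all peaks. All these peaks passed 1 threshold over both replicates, which narrows the range of values behind rho. The part of 1 replicate in the coding-exon peaks was not tested.

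**Figure D3:**
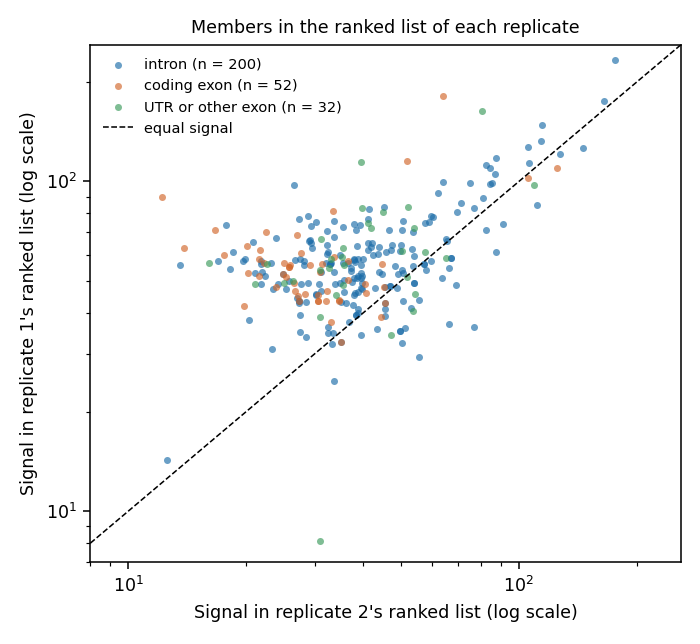
Signal of each member in the ranked list of replicate 1 (y axis) and replicate 2 (x axis), both on log scales, coloured by gene feature; the dashed line marks equal signal. Of the 284 members with a value in each, 236 lie above the line.

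The intronic members of highest signal were found in each replicate. All 15 strongest, with signals from 178 to 424, overlapped a peak in both thresholded lists, and 11 of the 15 had the higher ranked signal in replicate 1. The 15 were picked by the signal over both replicates, so their presence in both lists is not independent of the choice. The share among other peaks of like signal was not computed. The strongest lay in an intron of ints-8, a subunit of the Integrator complex that processes snRNA ends. Its ranked signal was 234 in replicate 1 and 176 in replicate 2. Its summit was 10 bp inside rpr-1, the gene for the RNA of RNase P, which cuts tRNA precursors. The summit in mom-1, a Porcupine relative that acts in Wnt secretion, had 175 and 166 in replicates 1 and 2 and no annotated non-coding gene within 150 bp. That in unc-104, the kinesin that carries synaptic vesicle precursors, had 148 and 114 and lay 7 bp from the 5′ end of the tRNA pseudogene whose letters are in capitals above. Of these 15, 4 had an annotated non-coding gene or pseudogene within 150 bp and 11 had none.

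The other strong intronic members included cmk-1, a calcium-dependent kinase, with 128 in replicate 1 and 105 in replicate 2 at the repeated sequence shown above. The gene brc-1, the worm BRCA1, held 2 of the 15. The stronger of these had 121 and 127 and lay 18 bp inside an annotated pseudogene. Y41G9A.17 and Y69A2AR.31 had signals of 266 and 247 in the list made from both replicates. T28B11.1 (226) had its summit inside the non-coding RNA genes T28B11.18 and T28B11.4. The other hosts were let-268, a procollagen-modifying enzyme (203), spe-43, a gene of sperm activation (195), Y6B3B.1 (191), scc-2, the cohesin loader (190), ptr-17, a Patched-related protein (180), and T24H10.5 (178). Apart from the stronger member in brc-1 and those in Y41G9A.17, Y6B3B.1 and T24H10.5, each of the 15 was higher in replicate 1.

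The exonic members of highest signal ran lower in signal, and not all were found in each replicate. The 10 strongest had signals from 124 to 253, 7 of them overlapped a peak in both thresholded lists, and 8 were higher in replicate 1. They were picked in the same way as the intronic members above but over a lower range, so the counts do not compare introns and exons at like signal. The strongest, in a coding exon of dos-3, which encodes a protein of the Notch co-ligand kind, had a ranked signal of 181 in replicate 1 and 63.8 in replicate 2. That in pks-1, a polyketide synthase, had 110 and 125 and was 15196 bp from the nearest gene start. These 2 members differ in their balance between replicates although their signals in the list made from both, 253 and 243, are close.

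The 5′ UTR peak of pck-2 had 164 in replicate 1 and 80.2 in replicate 2, and that of C34C12.2 had 97.7 and 109. Y43F8B.3, in a coding exon, had 115 and 51.6. The strongest of the 4 in tos-1 had 115 and 39.5. The remaining hosts of the 10 were drap-1 and shc-1, a Shc adaptor, in 5′ UTRs, and tlp-1, a zinc finger gene of tail shaping, and bed-2, a BED-finger gene, in 3′ UTRs, with signals from 124 to 134.

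**Figure D4:**
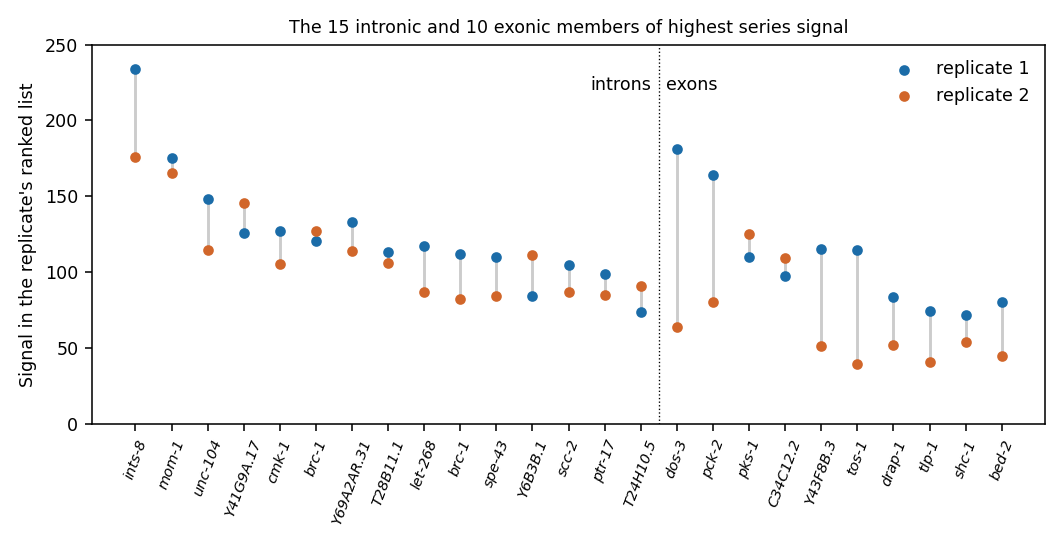
Ranked-list signal in replicate 1 and replicate 2 (y axis) for the 15 intronic and 10 exonic members of highest series signal, named by host gene, with a grey line joining the replicates. In ints-8 both values are the highest of the 25, 234 and 176, and in dos-3 the gap is widest, 181 against 63.8.

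The summits were rich in G and C, as were those of the other peaks of the list. Over the 50 bp on either side, median GC content was 49.5% in the members and 37.6% in windows centred 300 bp away. The median at the summit was also 49.5% near gene starts and for the intergenic peaks, and it was 50.5% over all 1815. Among the members the centre was above the flanks in 256 of 289 (88.6%, 84.3 to 92.0). Eligible windows tiled across the genome had a median of 36%, or 33% in introns and 41% in exons. Intronic members were at 49.5% and exonic ones at 48.0%, so the gap to the matching background was wider in introns. The centre was above the flanks in 184 of 203 intronic members and 72 of 86 exonic ones.

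Short words were counted on both strands in the same windows, beside flanks and eligible windows, and beside the share in eligible windows within 2 points of the same GC content. The TAAT words TAATTA or TAATGA, the kind a homeodomain typically binds, were in 10 of the 203 intronic members (4.93%, 2.39 to 8.87), in 8.37% and 9.36% of their left and right flanks, in 10.9% of eligible intronic windows and in 4.27% of those of the same GC content. In exons they were in 4 of 86 (4.65%, 1.28 to 11.5), against 5.81% and 11.6% in the flanks and 4.33% at the same GC content. Both shares were close to those of sequence of the same base composition. Both intervals hold the left flank's share, and both end just below the right flank's share. A lack of these letters in a window says nothing of whether the protein was bound there.

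Repeats of GA and GC were more common at the summits. GAGAGA was in 40 intronic members (19.7%, 14.5 to 25.9) against 9.75% at the same GC content, and in 16 exonic members (18.6%, 11.0 to 28.4) against 5.85%. Its share in the flanks was 5.91% and 6.90% in introns and 3.49% on each side in exons. GCGCGC was in 28 intronic members (13.8%, 9.37 to 19.3) against 5.29% at the same GC content, and in 1 exonic member (1.16%, 0.0294 to 6.31) against 0.633%. The GA word was therefore above its background in introns and in exons, and the GC word in introns. Near gene starts GAGAGA stood at 16.6% and GCGCGC at 12.8%, and among the intergenic peaks at 25.4% and 9.49%. The GA word, TTTTTT and the B box pattern were picked after the peak sequences had been seen. TTTTTT was in 18.2% of intronic members and 11.6% of exonic ones, against 19.7% and 9.53% at the same GC content.

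**Figure D5:**
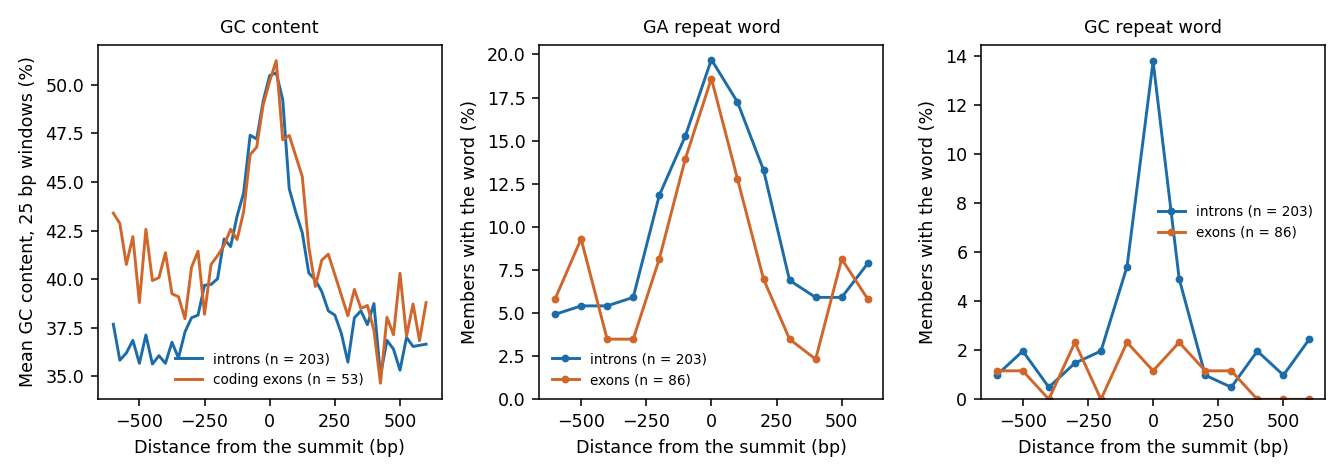
Mean GC content in 25 bp windows (left) and the share of members with a GA repeat word or a GC repeat word in windows of 50 bp either side (middle and right), by distance from the summit in bp. Introns are in blue; coding exons (left) or all exons (middle, right) are in orange. The GC content is highest 25 bp to the right of the summit, at 50.6% in introns and 51.2% in coding exons. The GA repeat word reaches 19.7% of intronic and 18.6% of exonic members at the summit.

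The letters of the tRNA B box, GTTCNANNC, were in 18 intronic members (8.87%, 5.34 to 13.7) against 4.43% and 7.39% in the flanks, 4.53% at the same GC content and 2.87% of all eligible intronic windows. The interval holds the right flank's share. In exonic members they were in 2 of 86 (2.33%, 0.283 to 8.15), against 4.68% at the same GC content. The word GGTTCG, which overlaps this pattern in part, was in 5.42% of intronic members against 3.94% and 4.93% in the flanks and 3.59% at the same GC content. At the small RNA genes that the rule dropped, the B box letters were in 55.6% of windows. A match is a description and not a site.

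Windows that repeat themselves, with at least 80% of bases equal to those a fixed 2 to 50 bp farther along, numbered 8 of the 203 intronic members (3.94%, 1.72 to 7.62), against 3.9% of eligible intronic windows of the same GC content, and 1 of the 86 exonic members (1.16%, 0.0294 to 6.31), against 0.104%. The intronic share was thus close to that of sequence of the same base composition. This measure was added after the sequences had been seen. The cmk-1 window equals itself at a step of 22 bp in 84.8% of positions. In tir-1, the worm SARM, and in pck-2 the step was 40 bp, with 96.7% and 90.2% equal. How reads map to such sequence was not tested.

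Annotated non-coding genes and pseudogenes were near some of the members although the rule had removed peaks at tRNA, snoRNA and snRNA starts. Within 150 bp of 42 members (14.5%, 10.7 to 19.1) there was one, against 5.13% of eligible bases and 25.1% of the intergenic peaks. Most were of the class ncRNA (31 members), with pseudogenes at 5 and miRNA genes at 3. RefSeq names a tRNA pseudogene near 3 members, in unc-104, Y69A2AR.31 and C33A11.2. Median signal was 97.2 with such a gene nearby and 87.1 without. Besides rpr-1 the named cases were srpr-1.2 in ckb-2, a choline kinase, with a ranked signal of 64.2 in replicate 1 and 49.8 in replicate 2, and mir-2214 in B0361.11, with 71.1 and 50.3. In lin-39, a Hox gene of the mid-body, the summit lay inside the non-coding gene C07H6.18 with 45.9 and 38.2. All 3 had the higher value in replicate 1.

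The host genes were long. They were 243 of the 14845 genes with eligible sequence (1.64%), and their median span was 7938 bp against 2658 bp. Their median eligible sequence was 6407 bp against 1438 bp. A gene with more eligible sequence has more room for a summit, so longer hosts follow in part from how hosts are picked. A comparison weighted by eligible sequence was not computed. Most hosts (210) held 1 member, 23 held 2 and 10 held 3 or more, and these 10 held 37 members. The gene mnk-1, a kinase activated by MAP kinases, held 6, in introns, a coding exon and both UTRs over 8797 bp, with signals from 71.2 to 110. Of these 6, 4 overlapped a peak in replicate 1's list and 0 in replicate 2's list, with median ranked signals of 66.0 and 31.1. The gene lin-42, the worm Period, held 3, of which 1 was in replicate 1's list and 0 in replicate 2's. In the gene tos-1, by contrast, 3 of its 4 members were in both lists.

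The other hosts with several members were Y43F8B.2 with 5, pqn-41, a glutamine-rich protein gene, with 4, and T28B11.1, Y69A2AR.31, tent-5, a poly(A) polymerase, tir-1 and trp-4, a mechanosensory TRP channel, with 3 each. In pqn-41 all 4 were intronic and 3 were in replicate 2's list, but 2 of these 3 overlap each other and share their ranked signals of 58.5 and 66.9. Members were spread over 8935 bp in Y43F8B.2 and 2271 bp in tent-5, and 2 in each gene overlapped another peak of the list.

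Hosts were also counted in 12 lists of gene symbols, beside the 1.64% of all eligible genes and the 7.10 members per Mb of all eligible sequence. The lists were built from name patterns and do not hold every gene of the kind they are called after, so a count below covers the listed names only. The list of other transcription factors, without homeobox and nuclear hormone receptor names, held 11 hosts (5.47% of its genes, 2.76 to 9.58) and 15.7 members per Mb. Its strongest hosts were zip-7, a bZIP gene, zim-1, which pairs chromosomes in meiosis, and crh-2, a CREB relative. The list of kinase and signalling names held 10 hosts of 177 and 8.12 members per Mb, led by mom-1, cmk-1 and max-2, a PAK kinase, and it lacks mnk-1 and mak-1, a further kinase gene that was a host. The list of synapse and axon guidance names held 9 of 180 and 6.74 per Mb, led by unc-104, zig-11 and unc-108, a small GTPase. For these last 2 lists the share of genes that were hosts was above 1.64%, and the members per Mb were close to 7.10.

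The list of homeobox names held 3 hosts of 97, of which unc-62, the worm Meis, and lin-39 are homeobox genes, while unc-3 encodes an EBF factor of motor neurons and is not one. None of these 3 was overlapped in both replicate lists, a count too small to set apart from the 21.8% of all members. Nor was any member in the nuclear hormone receptor, collagen, ion channel, muscle structure or RNA binding lists. Nuclear hormone receptor names held 5 hosts of 257, led by nhr-3, nhr-40 and nhr-41. Names of collagens and of matrix or epidermal attachment genes held 4 of 191, with col-50 and col-99 the strongest collagens, followed by vab-10, which encodes a cytoskeletal linker and is in the synapse list as well. Of 228 listed chromatin names 4 were hosts, among them scc-2, dot-1.1 and zfp-1, and pbrm-1 and let-526, hosts that encode chromatin remodelling subunits, are not in that list. Ion channel names held 2 of 288, trp-4 and unc-80, and the list lacks the host trpl-3, a TRP-like channel gene. Muscle structure names held 2 of 82, unc-23 and unc-54, the body-wall myosin. The lists of RNA binding and of translation names held rsp-8 and rpl-3 in turn, and lack the hosts larp-1, a La-related gene, and eif-3.I, an initiation factor subunit. The listed neuropeptide and amine receptor names held 0 hosts of 132, which allows a share of up to 2.76%. The gene vab-7 itself was not a host.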

How the data were processed

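The deposited files are peak lists on ce11 of a ChIP-seq experiment on 2 replicates, per the labels. Columns used are the score, which in the authors' lists encodes the irreproducible discovery rate (IDR) per the file list deposited with each sample and the values, and the signal, which the authors deposited per peak with no stated normalisation. The list of members is the authors' non-conservative list at an IDR threshold of 0.01 over both replicates. Each of aligner, peak caller, sequencing depth and control handling is not given in the sources used here, so no value has a count behind it. The members and lists were chosen with earlier results of these data known.

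Summits were placed on Ensembl release 115 (WBcel235) with Python 3.11.15, numpy 2.4.6, pandas 2.3.3 and scipy 1.17.1, and the rule was checked on a small made-up annotation. A summit in several features was placed in the first of 5′ UTR, coding exon, 3′ UTR, other exon and intron. Eligible sequence is every base inside a protein-coding gene, over 1000 bp from every protein-coding gene start and over 200 bp from every tRNA, snoRNA and snRNA 5′ end. A member was counted in a replicate's list at an overlap of 1 bp or more. Its ranked signal is the highest signal of any overlapping peak in the replicate's own ranked list. For the 30 members that overlap another peak of the list, that value can be a neighbour's. Shares have exact Clopper-Pearson 95% intervals and medians order-statistic ones. Genes were named by rule: hosts of the 15 intronic and 10 exonic members of highest signal, hosts with 3 or more members, and the 3 strongest hosts in each of 12 lists, with a few others named after their values were seen (ckb-2, B0361.11, C33A11.2, mak-1, pbrm-1, let-526, trpl-3, larp-1, eif-3.I). Drawings used matplotlib 3.10.9. A second ranked list of the series was not used because its columns cannot be tied to a replicate by name.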

Additional observations from a re-analysis of the deposited data

How the results depend on the processing

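Of 84 alternative values, 70 stayed within 1.5 times the main count or within its interval and 14 moved. With the thresholded list of 1 replicate alone in place of the list from both, the members numbered from 125 to 137, the share in introns ranged from 70.8% to 80% and the share with a TAAT word from 2.4% to 6.57%, the list of replicate 2 giving the 125, the 80% and the 2.4%. Overlap with both lists and series signal were not computed there. At an IDR of 0.005 or less, 32.1% were overlapped by both lists and median signal was 99.2. With no small RNA genes dropped there were 468 members, with 80.3% in introns, 17.3% of these in a first intron, 35.7% overlapped by both lists and a median signal of 99.9. A distance limit of 2000 bp gave 18.2% in first introns (12.4 to 25.4). That interval holds the 12.7% of eligible intronic bases found at the main limit, and the share of bases at 2000 bp was not computed. Windows of 100 bp either side gave a median GC of 47.3% and TAAT words in 12.8%, in a window with more room for a word. Leaving out members at annotated non-coding genes, or members whose peak overlaps another, both chosen after seeing the data, moved none of the 7 values. No paired analysis was possible because there is 1 group and no test.

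The limits are those of 2 libraries of whole animals and of peak lists. Without counts the depth behind a peak is unknown, and a list gives only what passed its threshold. Ranked signals come from separate lists whose scaling is not stated. Open chromatin, antibody background and the control were not tested. The annotation decides what counts as a gene start, an intron or a nested gene.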

Other observations

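Per Mb of eligible sequence there were 9.49 members on chromosome III, 8.19 on II, 7.06 on I, 6.59 on V, 6.25 on IV and 5.33 on X, against 7.10 over all. Chromosome III held 62 of the members (21.5%, 16.9 to 26.6) and 16.0% of the eligible sequence. For the other 5 chromosomes the interval of the share of members holds the share of eligible sequence. On the X chromosome 33 of the 37 were intronic and 4 were overlapped by a peak in both replicate lists, and on chromosome III 44 of 62 were intronic and 16 were in both. The outer 25% at either end of the chromosomes held 7.62 per Mb and the middle 50% held 6.54 per Mb. These are descriptions of 1 list, and no difference between chromosomes was tested.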
